A study of Mus musculus with 12 samples.

Results

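The hemoglobin and erythroid genes of this study are Hba-a1, Hba-a2, Hbb-b1, Hbb-b2, Alas2, Hemgn and Epb4.2, and every non-control probe that carries 1 of these 7 names on the array was taken. This gave 10 of the 56605 different probes. Tests were limited to probes that the scanner software called well above background on 3 or more of the 12 arrays, which kept 8 of these 10 and 39449 of all probes. The 2 others, the second probes of Hemgn and Epb4.2, were well above background on no array.

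RNA from whole mouse kidney was labelled with a single dye and hybridised to Agilent microarrays, on which the brightness of each spot measures the RNA bound to a printed probe of 60 bases. In ischemia-reperfusion injury (IRI) blood flow to both kidneys is stopped for a while and then let back in. The stop is given as 40 min with clips in the series text but as 30 min with ligatures in the protocol. Each group holds 3 male mice on a C57 background, described as independent samples.

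The groups were Jaml knockout (KO) mice 24 h after IRI, wild-type (WT) mice 24 h after IRI, KO mice after a sham operation and WT mice after a sham operation. Jaml encodes a junctional adhesion molecule of leukocytes, and the labels do not say how the allele was made or whether it is deleted in every cell. The Jaml probe was lower in KO sham than in WT sham kidneys by a log2 fold change of -2.79 ± 0.55 (SE, limma adjusted p = 0.0175), and the change in KO IRI against WT IRI kidneys was -1.57 ± 0.55 (limma adjusted p = 0.164). All 6 KO arrays lay on 1 slide and all 6 WT arrays on the other. Genotype and slide therefore cannot be told apart, whereas IRI and sham arrays of a genotype share a slide. The share of probes well above background ran between 62.9% and 68.1% per array.

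Hemoglobin is built from alpha chains, encoded by Hba-a1 and Hba-a2, and beta chains, encoded by the Hbb genes, each chain holding a heme. Alas2 is the erythroid enzyme of the first step of heme synthesis, Hemgn is a nuclear protein of developing blood cells, and Epb4.2 (current symbol Epb42) is protein 4.2 of the red cell membrane skeleton. Mouse red cells lose their nucleus in the marrow or spleen, and the youngest of them, reticulocytes, still carry globin and Alas2 RNA into the blood. Adult kidney makes the hormone erythropoietin but is not a site of red cell formation, and a kidney sample holds the blood that remained in its vessels. In such bulk RNA, fewer cells of a type and less RNA per cell cannot be told apart.

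The globin genes exist as close copies, and the probe sequences show in part how far the probes can separate them. The Hba-a1 and Hba-a2 probes near the 3′ end of the transcripts share a run of 59 of their 60 bases, so that they measure the alpha-globin pair together. Their first 30 bases are printed with the shared bases in capitals. They lie at chr11:32184427-32184456 and chr11:32197245-32197274 on the plus strand (mm9 coordinates, as in the files).
Hba-a1: cTTCTTCTCTCCCTTGCACCTGTACCTCTT
Hba-a2: TTCTTCTCTCCCTTGCACCTGTACCTCTTG
A second Hba-a1 probe at chr11:32183955-32184014 (mm9, plus strand) has an open reading frame over its full length. It is shown whole because it measured alpha-globin RNA at a separate position of the transcript.
Hba-a1 second probe: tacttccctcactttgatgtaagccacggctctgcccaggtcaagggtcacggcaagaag

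The beta-globin names need the same care. RefSeq places Hbb-b1 and Hbb-b2 on an alternate locus, whereas C57BL/6 mice carry the copies named Hbb-bs and Hbb-bt. The Hbb-b1 probe at chr7:110976379-110976438 (mm9, minus strand) matched Hbb-bs without a mismatch over its bases 1 to 46, up to the end of the RefSeq sequence used. Against Hbb-bt it had 7 mismatches in 45 aligned bases. Its first 30 bases are set beside the same stretch of Hbb-bt, at chr7:103813889-103813918 (RefSeq, GRCm38.p6, minus strand), with the differing bases in capitals.
Hbb-b1: tttgcttctgaCATAgttgtgttgactCAc
Hbb-bt: tttgcttctgaTTCTgttgtgttgactTGc
The Hbb-b2 probe has no position on mm9 in the files, and which of the beta-globin copies it binds was not tested. It is shown whole because it gave the largest difference between the genotypes after IRI among the members.
Hbb-b2: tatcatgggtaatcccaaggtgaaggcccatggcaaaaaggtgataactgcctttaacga

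The Alas2 probe lies at chrX:147004993-147005052 (mm9, plus strand), and shares no run of over 7 bases with a globin probe. Its first 30 bases are shown because Alas2 was called together with the globins. No array probe of a gene outside the members shared 25 or more bases with a globin, Alas2 or Epb4.2 probe. That search compared probes with probes only, so it cannot show which transcripts a probe binds.
Alas2: tttgggaacatgggaccccaatatgttacc
The 2 Hemgn probes lie 58 bases apart, at chr4:46407248-46407307 and chr4:46407366-46407425 (mm9, minus strand), and differ in kind. The first is a TG repeat over its bases 25 to 60, a run of 36 bases, and the second is ordinary sequence. The last 30 bases of each are shown, with the repeat in capitals.
Hemgn repeat probe: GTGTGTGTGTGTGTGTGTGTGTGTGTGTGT
Hemgn second probe: cagcaatcactaaaatttgcattgctattt

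Alpha-globin RNA was highest in WT kidneys after IRI. The Hba-a1 3′ probe had processed signals of 28886, 15656 and 9214 in KO IRI kidneys and 53749, 39759 and 39403 in WT IRI kidneys, listed by replicate. In KO sham kidneys it had 6441, 11291 and 12500, and in WT sham kidneys 6865, 5703 and 8146. The 3 WT IRI arrays lay above all other arrays, while the KO IRI arrays ran from sham levels in replicate 3 to well above them in replicate 1.

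Levels below are the log2 processed signal minus the 75th percentile of the array. On this scale the Hba-a1 3′ probe averaged 4.31 ± 0.80 in KO IRI, 5.76 ± 0.46 in WT IRI, 3.79 ± 0.46 in KO sham and 3.08 ± 0.32 in WT sham kidneys (SD, n = 3 each). It rose by 2.68 ± 0.40 (SE) in WT IRI against WT sham kidneys, a 6.40-fold change with a limma adjusted p of 0.00533. The 95% interval of the log2 change was 1.79 to 3.56. Each of the 3 alpha-globin probes is printed in 10 spots, and these differed by a coefficient of variation of 0.811% to 2.70% within an array, far less than the arrays of a group differed.

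The other alpha-globin probes gave the same picture. The Hba-a1 coding probe had levels of 3.68, 3.02 and 2.22 in KO IRI, 5.05, 3.94 and 4.24 in WT IRI, 2.02, 2.66 and 2.76 in KO sham, and 1.69, 1.53 and 2.08 in WT sham kidneys. The Hba-a2 probe had levels of 5.05, 4.16 and 3.46 in KO IRI, 6.18, 5.27 and 5.57 in WT IRI, 3.17, 3.97 and 3.96 in KO sham, and 2.80, 2.81 and 3.37 in WT sham kidneys. With both probes WT IRI did not overlap WT sham, and KO IRI overlapped KO sham through replicate 3. The WT IRI change was 2.64 ± 0.39 for the coding probe (SE, limma adjusted p = 0.00529) and 2.68 ± 0.40 for Hba-a2 (limma adjusted p = 0.00533).

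Beta-globin RNA was also highest in WT kidneys after IRI. The Hbb-b1 probe had signals of 735, 409 and 242 in KO IRI, 1571, 954 and 1118 in WT IRI, 152, 265 and 311 in KO sham, and 171, 144 and 225 in WT sham kidneys. The Hbb-b2 probe had signals of 984, 597 and 358 in KO IRI, 2652, 1765 and 1948 in WT IRI, 219, 389 and 450 in KO sham, and 336, 236 and 414 in WT sham kidneys. Replicate 1 was again the brightest of each IRI group, and the third KO IRI array lay within the range of the KO sham arrays. In WT kidneys Hbb-b1 rose by 2.74 ± 0.43 (SE, limma adjusted p = 0.00659) and Hbb-b2 by 2.70 ± 0.41 (limma adjusted p = 0.00546) after IRI.

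Alas2 moved with the globins. It had signals of 216, 154 and 65.5 in KO IRI, 544, 428 and 309 in WT IRI, 56.3, 94.9 and 105 in KO sham, and 67.8, 43.8 and 80.2 in WT sham kidneys. All WT IRI arrays lay above every other array, and the third KO IRI array lay among the sham arrays. In WT IRI against WT sham kidneys Alas2 rose by 2.74 ± 0.43 (SE), which is 6.70-fold (limma adjusted p = 0.00706).

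**Figure D1:**
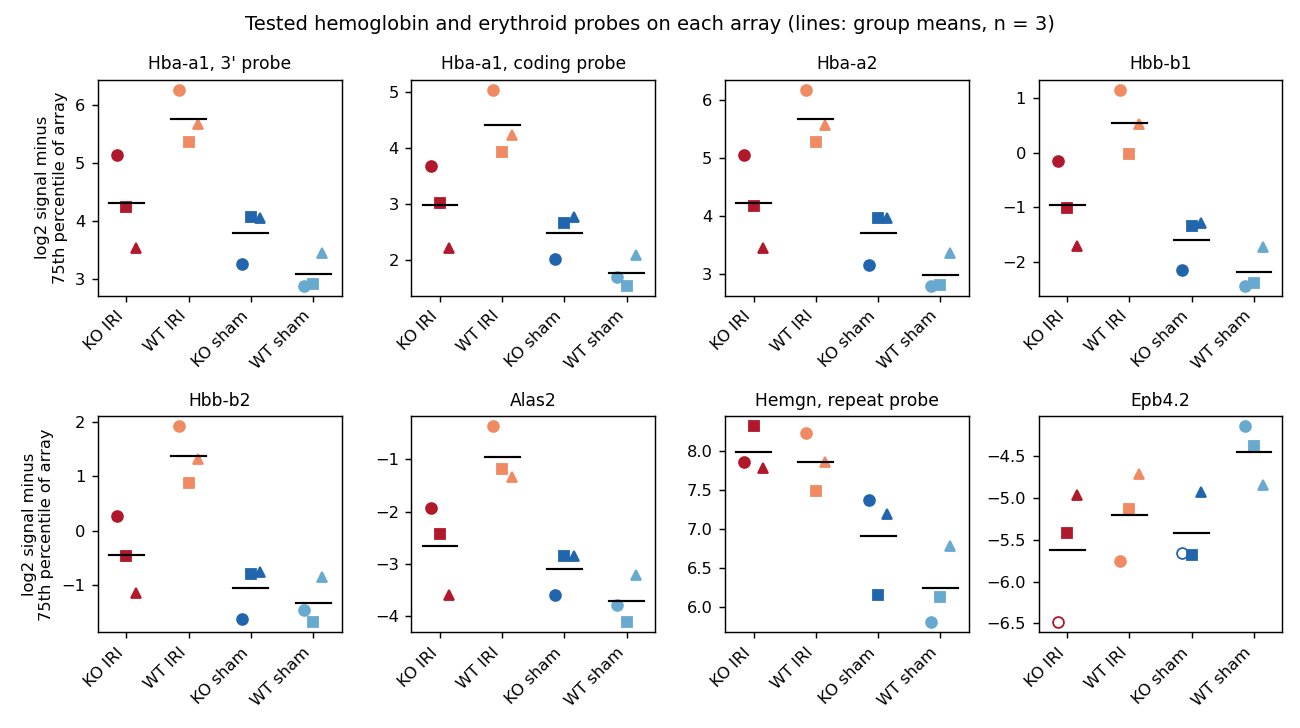
Each panel plots 1 member probe, with the log2 processed signal minus the 75th percentile of the array on the vertical axis and the groups KO IRI, WT IRI, KO sham and WT sham from left to right; points are single kidneys (circle, square and triangle for replicates 1, 2 and 3), open where not well above background, and lines are group means. The 3 WT IRI kidneys are above all others for the globins and Alas2 (for the Hba-a1 3′ probe 5.36 to 6.26), whereas the KO IRI kidneys spread from 3.54 to 5.14 for that probe.

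Over the 8 tested probes, 7 were higher and 0 lower in WT IRI against WT sham kidneys at a limma adjusted p under 0.05, where 10.4% of all tested probes were called in either direction, 5.32% higher and 5.06% lower. The 7 are not separate genes: they include the Hba-a1 and Hba-a2 3′ probes, which share a target, and the Hemgn repeat probe, described below. The median log2 change was 2.68 over the member probes and 0.013 over all tested probes. Groups did not overlap for the same number of probes, 7, against 31.8% of all tested probes. Without WT IRI replicate 1, the array furthest from its group (root mean square deviation 0.581, against 0.207 to 0.432 on the other arrays), 7 probes were still called, and the Hba-a1 3′ probe changed by 2.43 (limma adjusted p = 0.0109).

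In KO kidneys the IRI change was not called. The globin probes changed by 0.49 to 0.63 in KO IRI against KO sham kidneys, with 0.52 ± 0.40 for the Hba-a1 3′ probe (SE, limma adjusted p = 0.522, 95% interval -0.36 to 1.41). Alas2 changed by 0.44 ± 0.43 (limma adjusted p = 0.636, interval -0.52 to 1.40). By limma 0 of the 8 probes were called, where 5.18% of all tested probes were (1.79% higher and 3.40% lower). That split, 705 higher and 1340 lower, became 1094 higher and 1073 lower under quantile scaling. At an unadjusted p under 0.05, 1 probe was higher, that of Hemgn, as were 7.21% of all tested probes. It was also the only one whose groups did not overlap, against 34.0% of all tested probes. The median was 0.52 over the members and -0.070 over all tested probes. The change of the Hba-a1 3′ probe rested on single arrays: it was 0.11 without KO IRI replicate 1 and 0.91 without KO IRI replicate 3.

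After IRI the KO kidneys held less globin and Alas2 signal than the WT kidneys, by an amount that did not pass the test across all probes. The log2 change in KO IRI against WT IRI kidneys was -1.45 ± 0.40 for the Hba-a1 3′ probe (SE, limma adjusted p = 0.106, 95% interval -2.34 to -0.57), and it was -1.52 ± 0.43 for Hbb-b1 (limma adjusted p = 0.111). It was -1.82 ± 0.41 for Hbb-b2 (limma adjusted p = 0.0620) and -1.69 ± 0.43 for Alas2 (limma adjusted p = 0.0933). For 6 of the 8 probes no KO IRI array reached the lowest WT IRI array, where groups did not overlap for 20.4% of all tested probes and for 8.96% with KO IRI lower. By limma 0 probes were called, against 1.23% of all tested probes (0.682% lower), and 6 were lower at an unadjusted p under 0.05, as were 9.86% of all tested probes.

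This outcome depended on single arrays. Without KO IRI replicate 1, the brightest of its group, the 5 globin probes and Alas2 were lower by log2 changes between -1.79 and -2.18, with limma adjusted p between 0.0369 and 0.0488. With KO IRI replicate 3 left out instead they lay between -1.05 and -1.47, and 0 were called. Without WT IRI replicate 2, Hbb-b2 alone was called.

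The difference between the IRI responses of the genotypes was tested directly as an interaction. It was -2.16 ± 0.56 for the Hba-a1 3′ probe (SE, limma adjusted p = 0.328, 95% interval -3.41 to -0.91) and -2.30 ± 0.61 for Alas2 (limma adjusted p = 0.331). By limma 0 of the 8 probes and 0.0380% of all tested probes (0.0253% lower) were called, and 6 of the 8 were lower at an unadjusted p under 0.05, as were 6.03% of all tested probes. In sham kidneys the change of KO sham against WT sham was 0.70 ± 0.40 for the Hba-a1 3′ probe (limma adjusted p = 0.346) and 0.27 ± 0.41 for Hbb-b2 (limma adjusted p = 0.765). There 0 members were called by limma, 6.54% of all tested probes were (2.86% lower), and 1 member probe, that of Epb4.2, was lower at an unadjusted p under 0.05, as were 7.04% of all tested probes. That probe was also the only member whose groups did not overlap, against 40.1% of all tested probes. The median over all tested probes was 0.11 there, and the 1452 higher and 1129 lower calls became 945 higher and 1342 lower under quantile scaling. The interaction takes in these sham levels as well as those after IRI.

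**Figure D2:**
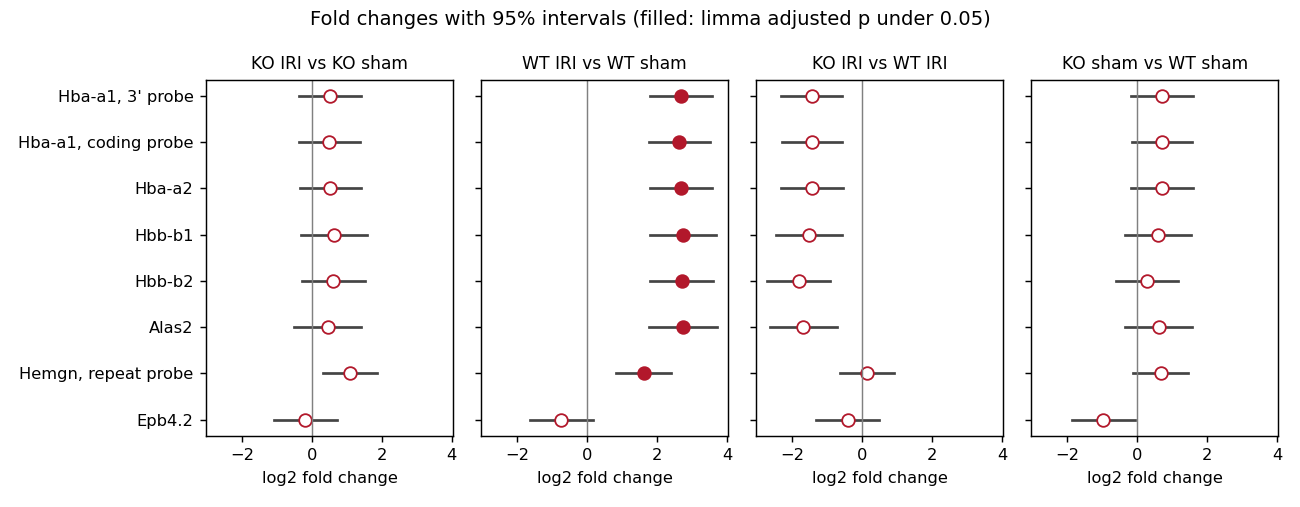
Each row is a tested member probe and each panel a comparison; the horizontal axis is the log2 fold change, points are limma estimates with 95% intervals, and filled points passed an adjusted p of 0.05. In WT IRI against WT sham the 7 probes other than Epb4.2 are filled, between 1.61 and 2.74; no point is filled in the other panels.

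The globin and Alas2 probes rose and fell together from kidney to kidney. Over the 12 arrays their levels correlated with each other at a Pearson r of 0.981 to 1.00 and a Spearman rho of 0.958 to 1.00. Within groups, taken as deviations from the group means, r was 0.918 to 1.00. The 2 alpha-globin 3′ probes share their target, but Alas2 shares none with the globins, and its deviations followed those of the Hba-a1 3′ probe at 0.939. All these values come from the same 12 hybridisations.

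The promoters of these genes hold some of the same short motifs. The 120 bases before the start of Hba-a1 (chr11:32283552-32283671), Hbb-bs (chr7:103827929-103828048, minus strand) and Alas2 (chrX:150547297-150547416) are shown from RefSeq, GRCm38.p6, because their RNAs moved together. Capitals mark the motif GATAA, the motif CACCC and the box CCAAT on either strand, and the box TATAA on the gene's strand. Overlapping matches run together.
Hba-a1 promoter: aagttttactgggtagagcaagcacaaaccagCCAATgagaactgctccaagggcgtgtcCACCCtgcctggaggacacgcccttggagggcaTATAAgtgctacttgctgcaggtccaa
Hbb-bs promoter: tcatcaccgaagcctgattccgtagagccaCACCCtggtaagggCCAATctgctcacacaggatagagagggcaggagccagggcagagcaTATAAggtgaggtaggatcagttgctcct
Alas2 promoter: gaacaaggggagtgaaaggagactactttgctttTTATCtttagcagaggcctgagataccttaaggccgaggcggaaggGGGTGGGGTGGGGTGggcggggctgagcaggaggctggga

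GATAA is the core of the site of GATA factors, CACCC of the erythroid factor KLF1, and CCAAT and TATAA are common promoter boxes. A TATAA lay 27 bases before the start of Hba-a1 and 29 before that of Hbb-bs, and a CCAAT 88 and 76 bases before. In Alas2 a GATAA lay 86 bases before the start, with CACCC matches at 40, 35 and 30. Among 32851 promoters, 22.6% held GATAA, 52.0% CACCC, 33.8% CCAAT and 16.0% TATAA within 250 bases before the start. The matches are a description of these letters. The 300-base windows of Hba-a1 and Hba-a2 share a run of 297 bases.

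The Hemgn repeat probe followed the globins less closely than they followed each other. It had signals of 189948, 262767 and 174326 in KO IRI, 209532, 173125 and 180585 in WT IRI, 111480, 48604 and 110590 in KO sham, and 52076, 53378 and 82033 in WT sham kidneys. Both IRI groups lay above both sham groups, and KO IRI and WT IRI overlapped. It rose by 1.61 ± 0.35 in WT IRI against WT sham kidneys (SE, limma adjusted p = 0.0206). It changed by 1.08 ± 0.35 in KO IRI against KO sham (limma adjusted p = 0.115) and by 0.13 ± 0.35 in KO IRI against WT IRI (limma adjusted p = 0.853). Over 12 arrays its r with the globin and Alas2 probes was 0.631 to 0.699, and within groups 0.143 to 0.232.

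Hemgn RNA itself was not measured above background by the neighbouring probe. That second Hemgn probe, 58 bases away in the same transcript, had signals between 2.11 and 3.19 on the 12 arrays and was well above background on none. The array holds 5 other probes with a TG run of at least 36 bases, annotated to Dennd4a, Sp110, Pak4, Zcchc9 and Pdp2. Their levels followed the Hemgn repeat probe at an r of 0.991 to 1.00 over the 12 arrays. In WT IRI against WT sham kidneys all 5 rose, with log2 changes of 1.15 to 1.59. In KO IRI against KO sham their changes were 0.62 to 1.07, with a median of 0.89.

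Among probes with such runs of at least 12 bases, calls after IRI went 1 way for TG runs and the other way for CA runs. Of 110 other tested probes with a TG run of at least 12 bases, 96 were higher and 0 lower in WT IRI against WT sham kidneys, with a median change of 1.78, and 27 were higher and 0 lower in KO IRI against KO sham, with a median of 1.30. Probes with a CA run, the opposite strand of a TG run, numbered 66 tested. Of these, 0 were higher and 59 lower in WT kidneys after IRI (median -1.76), and 0 were higher and 52 lower in KO kidneys (median -1.90). Of the 51 probes with TG runs of 12 to 17 bases, 39 rose in WT kidneys. Of the 215 with runs of 8 to 11 bases, 29 rose and 8 fell, with a median of 0.21. The Hemgn call is therefore a value of this repeat probe, and Hemgn transcript levels cannot be read from it.

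**Figure D3:**
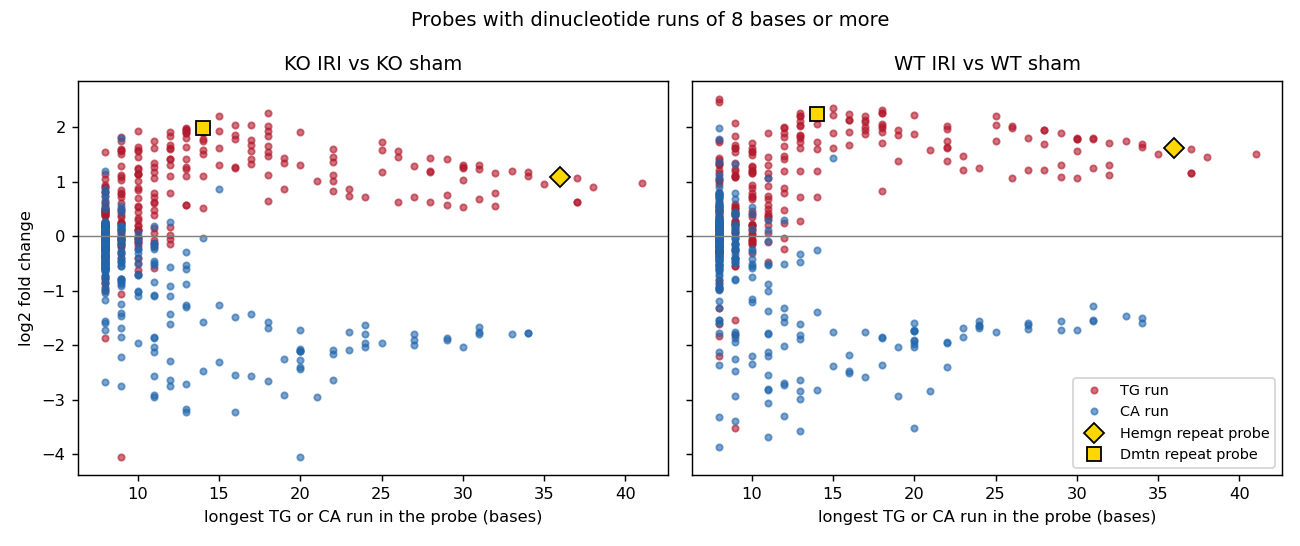
Each point is a tested probe with a TG run (red) or CA run (blue) of at least 8 bases; the horizontal axis is the length of the longest run in bases and the vertical axis the log2 fold change in KO IRI against KO sham (left) and WT IRI against WT sham (right). From 12 bases on, TG-run probes lie above 0 (108 of 110 in each panel, Hemgn not counted) and CA-run probes below 0 (all but 2 of 66 in each panel), and the Hemgn and Dmtn repeat probes lie among the TG-run probes.

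Epb4.2 was near background, and no comparison called it. Its tested probe at chr2:120844440-120844499 (mm9, minus strand) had signals of 9.12, 19.4 and 25.5 in KO IRI, 12.97, 27.7 and 29.8 in WT IRI, 13.4, 13.2 and 24.8 in KO sham, and 52.8, 36.7 and 25.9 in WT sham kidneys. It was well above background on 10 of the 12 arrays, and KO IRI replicate 1 and KO sham replicate 1 were the exceptions. The IRI change was -0.20 ± 0.41 in KO kidneys (SE, limma adjusted p = 0.842) and -0.75 ± 0.41 in WT kidneys (limma adjusted p = 0.260). KO sham lay below WT sham on every array, by -0.97 ± 0.41 (limma adjusted p = 0.191). Its deviations from the group means ran against those of the globins and Alas2, at r of -0.622 to -0.703.

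Among globin genes outside the members, Hbb-bt was called in WT kidneys after IRI. Its levels were 2.78, 2.24 and 1.18 in KO IRI, 3.75, 2.85 and 3.33 in WT IRI, 1.21, 2.26 and 2.00 in KO sham, and 0.84, 0.66 and 1.15 in WT sham kidneys. It rose by 2.43 ± 0.41 in WT IRI against WT sham (SE, limma adjusted p = 0.00863) and changed by 0.25 ± 0.41 in KO IRI against KO sham (limma adjusted p = 0.796). The embryonic globins Hba-x and Hbb-y and the globins Hbq1a and Hbb-bh2 were well above background on 0 of 12 arrays. Of 6 tested genes on a list of further globins and the alpha-globin chaperone Ahsp, 0 were called by limma in either IRI comparison, and 1 was lower in each at an unadjusted p under 0.05.

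Calls in the other erythroid gene lists are set beside the share of all tested probes called by limma after IRI. That share was 5.18% in KO kidneys (1.79% higher, 3.40% lower) and 10.4% in WT kidneys (5.32% higher, 5.06% lower). In the heme synthesis list, 0 of 15 tested genes were higher in either IRI comparison, and 1, Uros, was lower in WT kidneys (-1.01 ± 0.26, SE, limma adjusted p = 0.0370). Uros encodes uroporphyrinogen III synthase. The median change of the list was -0.11 in KO kidneys and -0.034 in WT kidneys. At an unadjusted p under 0.05, 1 gene was higher and 2 lower in KO kidneys, and 2 were higher and 2 lower in WT kidneys.

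In the list of erythroid regulators, 0 of 14 tested genes were called by limma in KO kidneys (1 lower at an unadjusted p under 0.05) and 1 was higher in WT kidneys. That gene was Nfe2, a transcription factor of red cell and platelet precursors, with 1.53 ± 0.42 (SE, limma adjusted p = 0.0430). Nfe2 was also lower in KO IRI against WT IRI kidneys, by -2.37 ± 0.42 (limma adjusted p = 0.0267). Klf1, the activator of beta-globin, changed by -0.24 ± 0.32 in KO kidneys (limma adjusted p = 0.749) and 0.40 ± 0.32 in WT kidneys (limma adjusted p = 0.450). Gata1 and Gfi1b, which define erythroid precursors, were well above background on 0 of 12 arrays, and so were the red cell surface gene Rhag and the hormone gene Epo.

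Of 20 tested red cell membrane genes, 1 was higher and 1 lower in KO kidneys after IRI and 1 was higher in WT kidneys. The rise was that of Dmtn, which encodes an actin-bundling protein of the membrane skeleton, with 1.98 in KO kidneys (limma adjusted p = 0.0420) and 2.24 in WT kidneys (limma adjusted p = 0.0189). The Dmtn probe holds a TG run of 14 bases and followed the Hemgn repeat probe at an r of 0.976. The other Dmtn probe, with no TG run over 3 bases, changed by -0.24 in KO kidneys (limma adjusted p = 0.788) and -0.91 in WT kidneys (limma adjusted p = 0.146). Icam4, a red cell adhesion molecule, was lower in KO kidneys (-1.33 ± 0.28, SE, limma adjusted p = 0.0248). The median of the list was -0.19 in KO kidneys and -0.063 in WT kidneys.

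Of 30 tested genes of red cell maturation and red cell enzymes, 4 were higher and 1 lower in each genotype, where 5.18% of all tested probes were called in KO kidneys and 10.4% in WT kidneys. Pklr, the pyruvate kinase of red cells and liver, which kidney tubules also express, rose by 1.64 ± 0.32 in KO kidneys (SE, limma adjusted p = 0.0183) and 2.00 ± 0.32 in WT kidneys (limma adjusted p = 0.00707). Blvrb, biliverdin reductase B, rose by 0.98 ± 0.20 in KO kidneys (limma adjusted p = 0.0235) and 1.06 ± 0.20 in WT kidneys (limma adjusted p = 0.0132). Ybx3 and Isg20 also rose in both genotypes, by 0.61 to 0.82. The list's median was -0.029 in KO kidneys and -0.089 in WT kidneys.

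Some of the genes that bind, take up and break down free hemoglobin and heme were called in each genotype. Of 28 tested, 4 were higher and 4 lower in KO kidneys, where 1.79% of all tested probes were higher and 3.40% lower. In WT kidneys 7 were higher and 4 lower, where 5.32% of all tested probes were higher and 5.06% lower. Hmox1, the heme-degrading oxygenase, rose by 2.25 ± 0.51 in KO kidneys (SE, limma adjusted p = 0.0336) and 1.92 ± 0.51 in WT kidneys (limma adjusted p = 0.0414). Trf, which encodes the iron carrier transferrin, rose by 2.08 ± 0.40 in KO kidneys (limma adjusted p = 0.0185) and 2.35 ± 0.40 in WT kidneys (limma adjusted p = 0.00915). Nqo1, a quinone reductase induced together with Hmox1 by oxidative stress, rose by 1.1 ± 0.20 in KO kidneys (limma adjusted p = 0.0148) and 1.03 ± 0.20 in WT kidneys (limma adjusted p = 0.0141).

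Haptoglobin and hemopexin, the plasma binders of free hemoglobin and heme, were called in WT kidneys. Hp changed by 2.53 ± 0.90 in KO kidneys (SE, limma adjusted p = 0.150) and rose by 4.19 ± 0.90 in WT kidneys (limma adjusted p = 0.0199). Hpx changed by -0.47 ± 0.19 in KO kidneys (limma adjusted p = 0.209) and rose by 0.74 ± 0.19 in WT kidneys (limma adjusted p = 0.0366). Slc48a1, a heme transporter of the lysosome, rose by 0.78 ± 0.15 in WT kidneys (limma adjusted p = 0.0148) and changed by 0.44 ± 0.15 in KO kidneys (limma adjusted p = 0.141). In KO IRI against WT IRI kidneys limma called 0 of the 28, with 4 higher and 3 lower at an unadjusted p under 0.05.

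The receptors that take up filtered hemoglobin in the proximal tubule, and a heme transporter, fell in both genotypes. Lrp2, encoding megalin, fell by 0.98 on the log2 scale in KO kidneys (limma adjusted p = 0.00893) and by 0.81 in WT kidneys (limma adjusted p = 0.0140). Cubn, encoding cubilin, fell by 0.66 in KO kidneys (limma adjusted p = 0.0156) and by 0.57 in WT kidneys (limma adjusted p = 0.0199). Slc46a1, a folate and heme transporter, fell by 0.52 in KO kidneys and by 0.47 in WT kidneys (limma adjusted p = 0.0457 in both). The wider list of proximal tubule markers, which also holds Lrp2 and Cubn, had 6 of 12 called lower in KO kidneys and 4 of 12 in WT kidneys, and none called higher. Of all tested probes, 3.40% were lower in KO kidneys and 5.06% in WT kidneys. At an unadjusted p under 0.05, 8 markers were lower and 0 higher in KO kidneys, and 8 were lower and 1 higher in WT kidneys.

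**Figure D4:**
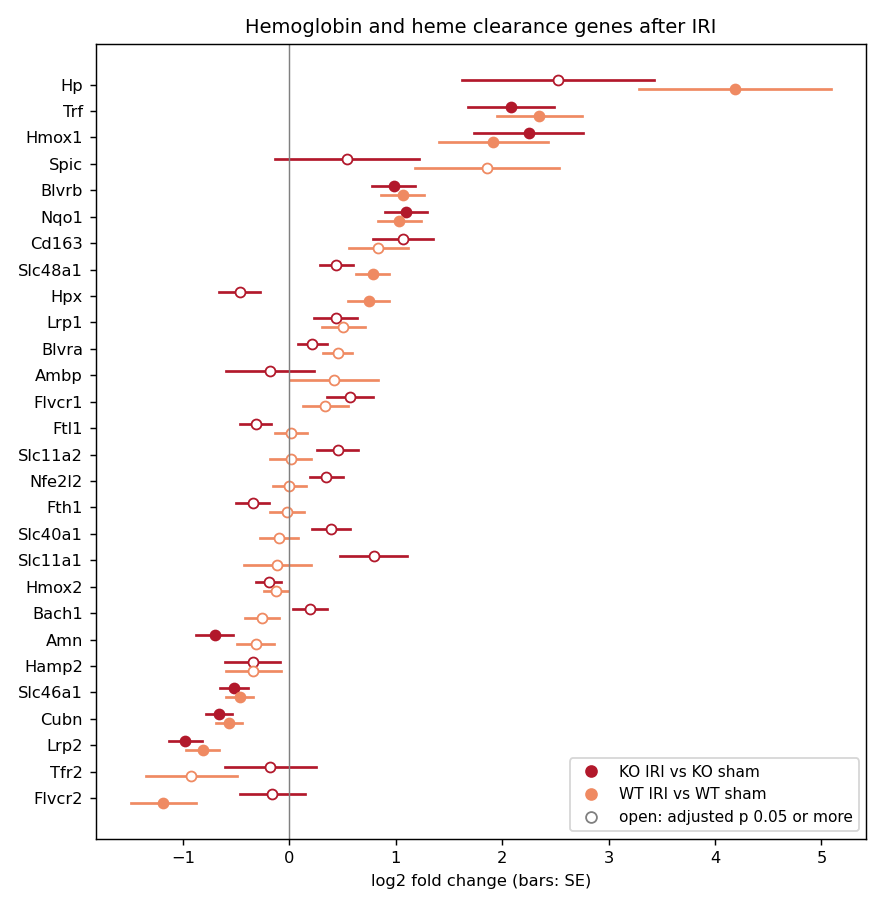
Each row is a gene of the hemoglobin and heme clearance list and the horizontal axis the log2 fold change after IRI; symbols are limma estimates for KO IRI against KO sham and WT IRI against WT sham, bars are the SE, and filled symbols passed an adjusted p of 0.05. Hmox1, Trf, Nqo1 and Blvrb are filled to the right in both genotypes, and Lrp2, Cubn and Slc46a1 to the left.

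Markers of other blood cells moved with the globins in some groups. The mean centred level of 15 neutrophil markers was -0.47 to 0.24 in KO IRI, 1.31 to 1.67 in WT IRI, -1.35 to -0.75 in KO sham and -0.53 to 0.31 in WT sham kidneys. Of the 15, 8 were higher and 1 lower in WT kidneys after IRI, 3 were higher and 0 lower in KO kidneys, and 4 were lower in KO IRI against WT IRI. Of all tested probes, 5.32% were higher and 5.06% lower in WT kidneys after IRI, and 1.79% were higher in KO kidneys. In KO IRI against WT IRI 0.682% were lower. For 13 platelet markers the level was -0.50 to -0.088 in KO IRI, 0.50 to 0.88 in WT IRI, -0.70 to -0.21 in KO sham and 0.11 to 0.27 in WT sham kidneys. Of the 13, only 1 was called higher and 0 lower in WT kidneys after IRI, and 0 were called in KO kidneys. In KO IRI against WT IRI 2 were lower. In KO sham against WT sham kidneys 5 neutrophil and 2 platelet markers were called lower, where 2.86% of all tested probes were. Both lists were highest in WT IRI kidneys, as were the globins, but both were lower in KO sham than in WT sham kidneys, where the globin levels were not. The part of blood cells held in the kidney in these results was not tested.

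**Figure D5:**
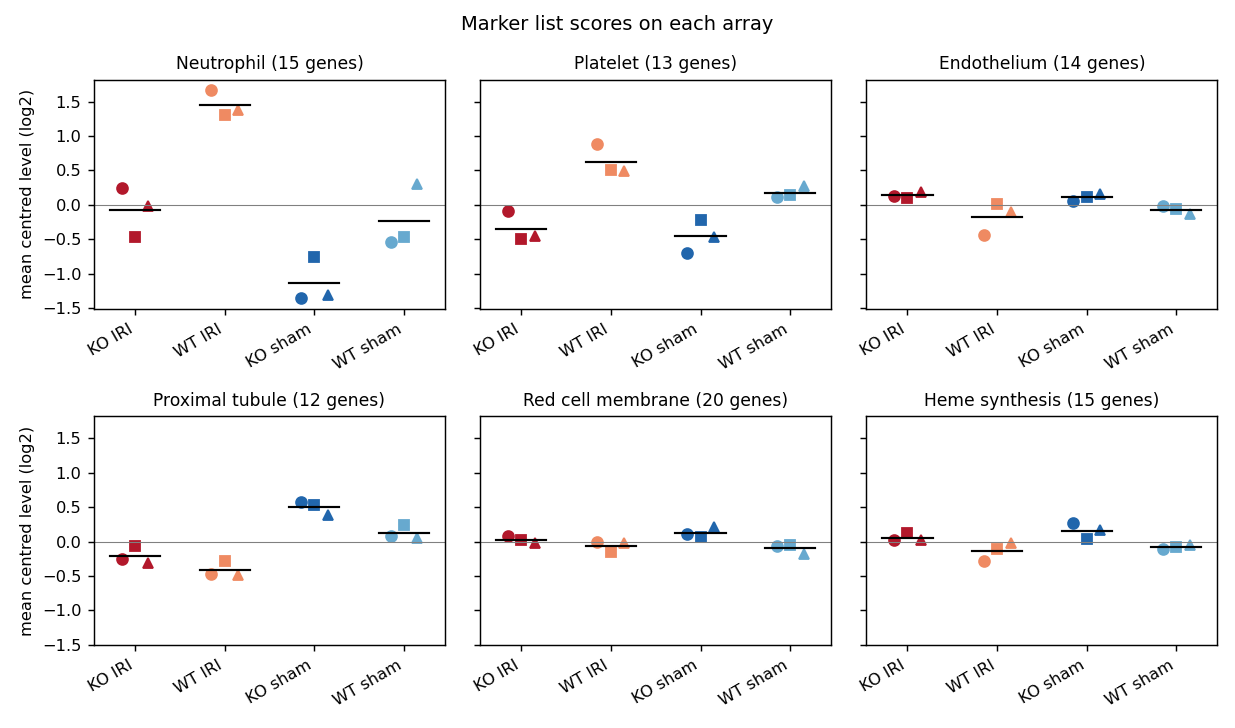
Points are single kidneys (3 per group: circle, square and triangle for replicates 1, 2 and 3) and lines are group means; each panel gives the mean over a gene list of the log2 level centred on each gene's mean over the 12 arrays, with the groups KO IRI, WT IRI, KO sham and WT sham from left to right. The neutrophil score reaches 1.31 to 1.67 in WT IRI kidneys, against -0.53 to 0.31 in WT sham, while the red cell membrane score lies between -0.18 and 0.21 in all 12.

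In the endothelial and bone marrow progenitor lists no gene was called higher by limma in either IRI comparison. Of 14 endothelial markers, 0 were called in KO kidneys (1 higher and 1 lower at an unadjusted p under 0.05) and 1, Ehd3 of glomerular endothelium, was lower in WT kidneys (-0.98 ± 0.21, SE, limma adjusted p = 0.0189). Of 12 bone marrow progenitor markers, 0 were called in KO kidneys (0 at an unadjusted p under 0.05) and 4 were lower in WT kidneys. A list of oxygen-sensing and low-oxygen response genes and of the interstitium that makes erythropoietin had 13 tested genes, Epo not among them. Of these, 1 was lower in KO kidneys, and 2 were higher and 1 lower in WT kidneys. Of all tested probes, 1.79% were higher and 3.40% lower in KO kidneys. In WT kidneys 5.32% were higher and 5.06% lower. Levels in whole kidney do not tell which cells changed. Slc2a1, a glucose transporter induced by low oxygen, was 1 of the 2 genes of that list called higher in WT kidneys, by 1.22 ± 0.19 (limma adjusted p = 0.00722). In the list as a whole, 7 of the 13 changes were above 0 in each genotype. The median was 0.066 in KO kidneys and 0.26 in WT kidneys.

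The genes whose levels followed the globin profile most closely were found among 25241 probes of other genes. The profile was the mean of the centred levels of the 4 globin members. Hbb-bt came first with r = 0.976 over the 12 arrays, followed by Dnmt3b (0.953), Als2cl (0.949), Pdgfa (0.947 and 0.938 with separate probes) and Trim16 (0.945). With levels taken as deviations from the group means, Jade2 (0.977), Clk2 (0.965), Hbb-bt (0.962), Zbed5 (0.932), Ubn1 (0.917) and Bfar (0.916) were highest. Only Hbb-bt was in both sets of 6, and the next probe was close behind in each (0.937 and 0.913). Most of these names depended on the scaling. Under quantile scaling only Hbb-bt, Als2cl and Pdgfa stayed in the first set, and only Hbb-bt, Jade2 and Clk2 in the second. For the mean profile of Alas2, Hemgn and Epb4.2, which joins probes that did not move together, Smim3 was closest (0.950) over the 12 arrays and Manea (0.941) in the deviations. With quantile scaling Apoa4 (0.957) and Manea (0.928) were closest to it.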

How the data were processed

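Expression was measured in 12 kidneys (4 groups of 3). Per the file headers, the deposited scanner files hold spot intensity values from Agilent Feature Extraction 10.7.1.1, with a processed signal that is background-corrected and detrended but not scaled between arrays. The authors' own log2 values were also deposited, as 1 table, and the submitters' processing notes name limma. Control and outlier-flagged spots were left out, spots of a probe were averaged, and the log2 processed signal was reduced by the array's 75th percentile. Probes that passed the background flag on 3 or more arrays entered a limma fit (version 3.58.1, R 4.3.3; 1 term per group, 8 residual degrees of freedom) with Benjamini-Hochberg adjustment over all tested probes and a threshold of 0.05. There were 5 comparisons. Other lists were represented by 1 probe per gene, the brightest. The number of arrays limits the precision. The fit was tested on simulated data.

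The members and the 12 gene lists were chosen with earlier results of these data known. All members are described; of each list, up to 4 genes past the threshold with the smallest adjusted p in either IRI comparison were to be named, and further ones (Klf1, Icam4, Hpx, Slc48a1, Slc46a1 and the Dmtn probes among them) were chosen after their values were seen, as were the TG-run probes. Likeness is Pearson's r over 12 arrays among probes well above background on all of them. The authors' table, quantile and normexp (offset 50) scaling, other filters, array weights, moderation with trend, a replicate block and each array left out were tried. Replicate numbers were not used to pair samples in the main fit. Deviations of 18 same-numbered pairs correlated at -0.287 to 0.135, with 4 above 0.1. Those of 36 differently numbered pairs correlated at -0.255 to 0.283, with 8 above 0.1. P-values rest on the series' statement that samples are independent.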

Additional observations from a re-analysis of the deposited data

How the results depend on the processing

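Over 40 member results (8 probes in 5 comparisons) and 862 values under the alternatives, 828 kept their side of the threshold, 30 passed it only under the alternative, 4 lost it and 0 called values changed sign. The 4 losses were all Hemgn in WT IRI against WT sham: adjusted p was 0.0705 with the WT arrays alone, 0.0851 and 0.0765 without WT sham replicate 1 or 2, and 0.0622 without WT IRI replicate 3. The other 6 calls in WT kidneys held under each alternative run, and the count of member probes was 6 to 7 with single arrays left out. In KO IRI against KO sham, 1 member (Hemgn) was called under quantile scaling, normexp or the authors' table and 0 to 0 with single arrays left out. In KO IRI against WT IRI, 1 was called with normexp, 6 with array weights and 0 to 6 with single arrays left out. Array weights, which ran from 0.111 for WT IRI replicate 1 to 4.88 for KO sham replicate 3, also gave 7 calls in KO sham against WT sham (6 higher, 1 lower) and 6 in the interaction; in both, single arrays left out gave 0 to 0. The weights were estimated gene by gene because the default method did not converge. Counts over all probes moved more. In WT IRI 4093 were called, 509 with the WT arrays alone, 12834 with weights and 926 to 6801 with single arrays left out. In KO IRI 2045 were called, 3085 with the KO arrays alone, 7645 with weights and 529 to 4282 with single arrays left out. In KO sham against WT sham the counts were 2581, 4974, 13284 and 646 to 5374 in the same order, and in KO IRI against WT IRI 486, 21, 2238 and 93 to 944. The interaction count of 15 became 1646 with weights, 25 with normexp, 6 with no filter on dim probes, 9 with probes above background on all arrays and 3 to 146 with single arrays left out. The replicate block changed no member call (7, 0, 0, 0 and 0 members called), and its counts over all probes were 231 for KO IRI against WT IRI and 5 for the interaction. The cause of these changes was not tested. The slide as a fixed block adds nothing to the IRI contrasts, since each slide holds 1 genotype, and as a random block it could not be estimated and was not run. Depth of signal limits Epb4.2, which was near background.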

Other observations

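Probes with TG or CA runs also leaned apart between the sham groups. In KO sham against WT sham kidneys the change was above 0 for 106 of the 110 probes with a TG run of at least 12 bases (median 0.57) and for 3 of the 66 with a CA run (median -0.54). Of the other tested probes of every kind, TG-run probes included, 263 of 39426 (0.667%) followed the Hemgn repeat probe at an r above 0.9. The r was taken over the 12 arrays. Among the 263 were 21 probes with TG runs of 8 to 11 bases and 42 with runs of 12 to 17. Runs of 18 to 23 bases gave 23 more, runs of 24 to 35 gave 30, and longer runs gave 5. The rest of the 263, which was the larger part, held no TG run of 8 or more bases.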
